A study of Mus musculus with 12 samples.

Results

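Mouse miRNAs named miR-297, miR-466, miR-467, or miR-669 were followed through osteoclast formation in culture. They were chosen by name, and opposite-strand forms, whose names end in an asterisk, were left out. The rule gave 37 of the 696 mouse miRNAs on the array, with 2 entries named miR-297, 14 miR-466, 7 miR-467, and 14 miR-669. Bone marrow came from the long bones of male C57BL/6 mice aged 6 to 8 weeks. After depletion of erythrocytes and of cells positive for B220/CD45R or CD3 (B and T lymphocytes), all cultures received M-CSF and RANKL at 30 ng/ml each, and they differed only in time, with 4 cultures at each of days 1, 3, and 5. There was no culture without RANKL, so time in culture and the response to RANKL cannot be told apart. RNA of each culture was hybridized to 1 single-color array, 12 in all. The labels call the 4 cultures of a day biological replicates, but do not say whether they came from different mice.

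M-CSF keeps osteoclast precursors alive and RANKL drives them to fuse into multinucleated, bone-resorbing osteoclasts. Most miRNAs of these families arise from a long intron of Sfmbt2, a Polycomb group gene on mouse chromosome 2 that is imprinted, with expression from the paternal copy in extraembryonic tissue. The cluster is a rodent-specific array of repeated hairpins and is best known for its role in the placenta. A miRNA finds its target mRNAs mainly through its seed, bases 2 to 8. Single members have been studied elsewhere, such as miR-467b, a repressor of lipoprotein lipase in macrophages, miR-669a, a repressor of MyoD, and miR-466l, which binds the IL-10 message.

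The name rule and the chromosome 2 cluster were not the same set. In the array's annotation (mm9), 32 of the 37 entries had a listed place on chromosome 2, and 29 had places on chromosome 2 alone. Apart from 1 distant place, the 99 distinct places on chromosome 2 lay within chr2:10388586-10439867, a stretch of 51282 bp. The remaining 5 entries had no listed place on chromosome 2. These were miR-466i-3p on chromosome 13, miR-466j on chromosome 10, miR-466k on chromosome 3, miR-467f on chromosome 11, and miR-467g on chromosome 5. In the RefSeq gene table for GRCm38.p6, the bounds of Sfmbt2 (chr2:10370440-10595253) held 72 miRNA genes, and all 72 belonged to these 4 families. In the same table, Mir467f (chr11:69635400-69635519) lay within the bounds of Fxr2, Mir466i (chr13:17747473-17747593) within Cdk13, and Mir669n (chr3:115979902-115979955) within Slc30a7. The table gives no exons, so exon and intron were not told apart.

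Many entries could not be tied to 1 hairpin. Of the 37, 13 had more than 1 listed place, up to 15 for miR-466b-3p, and 11 carried the names of other mature miRNAs as well. The entry miR-669n is 1 of these. It was listed at chr2:10430950-10430967 under the name miR-669c and at chr3:115682825-115682842 (both mm9), so its signal may come from the cluster, from chromosome 3, or from both. Signals of miR-466b-3p and miR-669f-3p were likewise shared with other names, and that of miR-669l with miR-467h and miR-669d, with places on chromosomes 2 and 9.

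Mature sequences from RefSeq (GRCm38.p6) matched 6 of the 37 entries by name, and the 6 differed from one another in their seeds. Those of the 3 that were detected are shown 5′ to 3′ with the seed in capitals, because they show the repeats that run through these miRNAs, A and C in miR-466i-3p and miR-467f and G and U in miR-669n. The longest probe of each paired with its mature sequence over its whole length, which was 19, 17, and 18 bases in the order shown.
miR-466i-3p: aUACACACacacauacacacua
miR-467f: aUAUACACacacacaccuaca
miR-669n: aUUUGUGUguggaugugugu

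Probes of further entries whose levels are described below are shown next, also 5′ to 3′, as the longest probe of each entry. The probes of miR-466f-3p lay wholly within those of miR-466i-3p, and capitals mark the shared run, so the signals of this pair cannot be taken as independent.
miR-669n: acacacatccacacacaa
miR-669f-3p: atacgtgtgtgtgtatgta
miR-466b-3p: tcttatgtgtgcgtgta
miR-467f: tgtaggtgtgtgtgtgt
miR-466f-3p: GTGTGTATGTGTGTGTG
miR-466i-3p: taGTGTGTATGTGTGTGTG

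Near-identical probes did not always give the same detection. In the next set capitals mark the bases that differ, counted from the 5′ end of the probe. The probe of miR-466c-5p, which was detected on 5 arrays, differed from that of miR-466a-5p, which was detected on none, by C11T. The probe of miR-669a, detected on 10 arrays, differed from that of miR-669b by A6C and from that of miR-669o-5p by G5A, and neither of these was detected on any array. Both probes of miR-669e were contained in a probe of miR-669a, yet miR-669e was detected on no array and its signal stayed between -75.7 and 5.01.
miR-466c-5p: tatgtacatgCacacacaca
miR-466a-5p: tatgtacatgTacacacacat
miR-669a: acatGAacatgcacacacaa
miR-669b: acatgCacatgcacaca
miR-669o-5p: acatAaacatgcacacac
miR-669e: atgaacatgcacacaca

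Only a part of the families could be measured in these cells. The scanner software marked 12 of the 37 entries (32.4%) as detected on at least 1 array, against 334 of all 696 mouse miRNAs (48.0%). Of the 12, miR-467f and miR-669f-3p were detected on all 12 arrays, and miR-466f-3p and miR-466i-3p on 11 each. Detection was marked on 10 arrays for miR-669a, on 9 each for miR-466b-3p and miR-467b, on 8 for miR-669n, and on 5 for miR-466c-5p. It was rarer for miR-466g, on 2 arrays of day 1, and for miR-467c and miR-669l, on 1 array of day 1 each. The other 25 entries, which include miR-466l-3p and both miR-297 entries, were not detected on any array. Absence of these miRNAs is not shown by this, since a signal near the background gives only an upper limit.

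The number of entries detected per array was 9, 12, 10, and 8 at day 1, 7, 6, 8, and 4 at day 3, and 9, 8, 8, and 2 at day 5. The fourth array of day 5 stood apart. On it 26 of the 37 entries had a background-subtracted signal below 0, down to -220 for miR-466d-5p, whereas on the other 11 arrays 14 to 22 entries were below 0. Over all miRNAs, 186 were detected on this array, against 211 to 276 on the others. Results are therefore also given without it where it matters.

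Base composition split the families, since the repeats are rich in G and T on one strand and in A and C on the other. Of the 14 entries whose probes held more than 50% G plus T, 6 were detected, and of the 23 with 50% or less, also 6. Among all other miRNAs, 102 of 226 were detected in the first class and 220 of 433 in the second. On the fourth array of day 5, the median signal of the undetected entries was -72.4 in the first class and -147 in the second. On the other 3 arrays of day 5 these medians lay between -7.58 and -4.28 and between -14.7 and -8.21. The class with more A and C had the lower median on all 12 arrays, by a wide margin also on the first array of day 1 (-62.9 against -32.5) and the fourth of day 3 (-55.3 against -8.14). Undetected miRNAs outside the families showed medians of -51.4 and -90.5 in the same classes on this array.

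**Figure D1:**
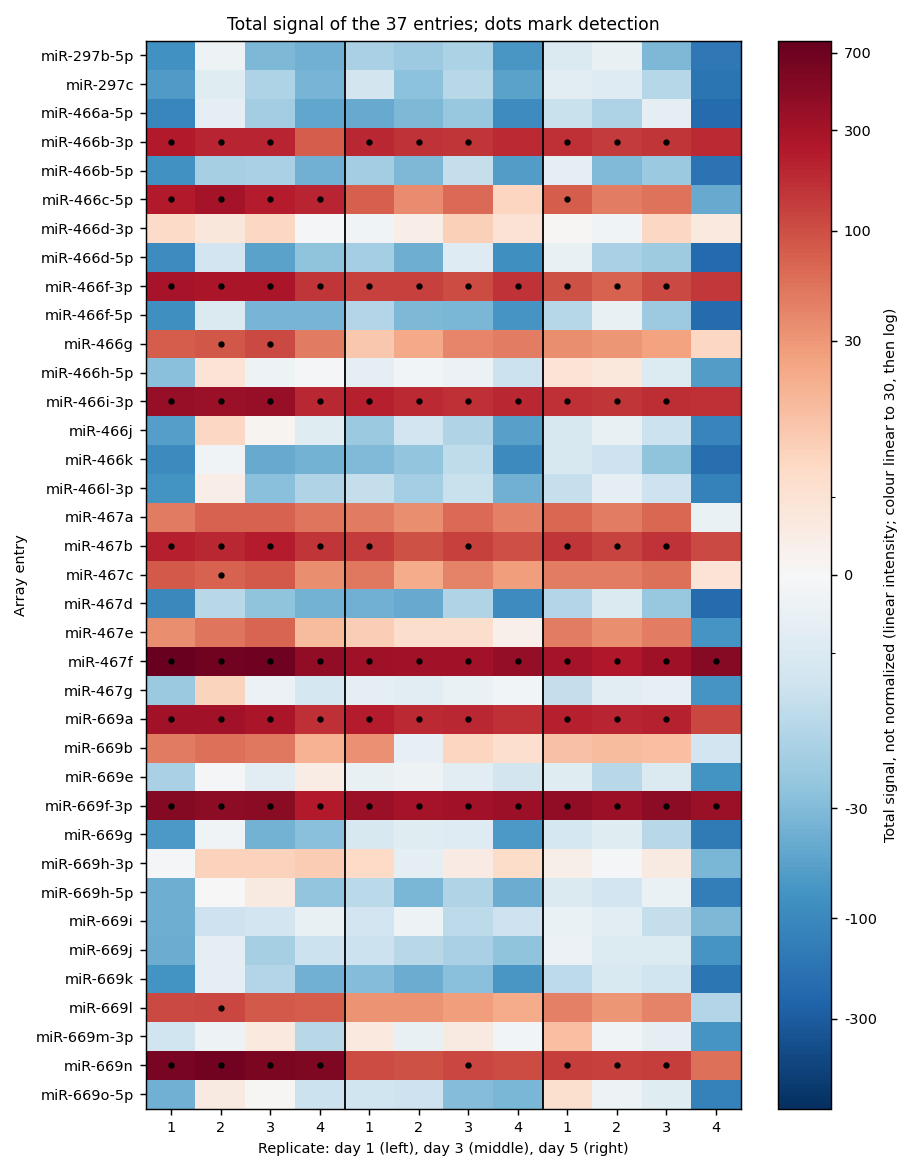
Total signal of the 37 entries (rows) on the 12 arrays (columns, by day and replicate), as background-subtracted linear intensity before normalization; black dots mark arrays on which an entry was detected. 12 rows hold at least 1 dot, and the last column, the fourth array of day 5, holds 26 signals below 0; brightness should not be compared between rows, since the probes differ.

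In all, the entries held a small share of the signal. Of the array total, their summed signal made up 0.167% ± 0.041 (SD, n = 4) on day 1, 0.122% ± 0.028 on day 3, and 0.0634% ± 0.105 on day 5. The wide spread at day 5 came from the fourth array, whose share was -0.0938%, and without it the mean was 0.116%. With negative signals set to 0, an alternative chosen after the data were seen, the shares were 0.198%, 0.174%, and 0.128%.

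To compare the days, total signals of the 334 miRNAs detected at least once were quantile normalized and converted to log2. A moderated F test over the 3 days (limma) was adjusted by Benjamini and Hochberg over all 334, with an adjusted p under 0.01 as the threshold. Of the 12 entries tested, 6 (50%) passed, against 62.9% of all miRNAs tested, and whether these shares differ was not tested. These were miR-669n, miR-466c-5p, miR-466f-3p, miR-669l, miR-466i-3p, and miR-669f-3p. A change over 2-fold was found for miR-669n and miR-466c-5p alone, 2 of 12, against 46.7% of all miRNAs tested. With 4 arrays against 4, the smallest p an exact permutation test can give is 0.0286. Days 1 and 5 lay on one slide with one scan and day 3 on another, so day 3 and slide cannot be told apart, while the comparison of days 1 and 5 was made within 1 slide.

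The entry miR-669n was lower at days 3 and 5 than at day 1. Detection was marked on 4 arrays of day 1, 1 of day 3, and 3 of day 5, so that its level at day 3 was near the background and the size of the change there is uncertain. Its signal before normalization was 585, 655, 559, and 541 on the arrays of day 1, then 106, 94.9, 116, and 103 at day 3, and 131, 123, 134, and 57.1 at day 5. Every array of day 1 lay above every array of days 3 and 5, and the array totals, which also fell, were between 1459229 and 1978030 at day 1 and between 970972 and 1572020 later. After normalization the log2 levels were 8.58, 9.10, 8.64, and 9.03 at day 1, 7.12, 7.04, 7.42, and 6.70 at day 3, and 7.08, 7.36, 7.24, and 6.54 at day 5. The groups of days 3 and 5 overlapped with each other and not with day 1. The change from day 1 was -1.76 ± 0.21 (SE) at day 3 (limma, adjusted p = 4.11e-05) and -1.78 ± 0.21 at day 5 (limma, adjusted p = 2.48e-05). Both kept their direction and passed the threshold under each of the alternatives run, 26 for day 3 and 27 for day 5, with values from -3.39 to -0.84 and from -3.17 to -0.88. Both changes share the day 1 arrays. Between days 3 and 5 the level differed by -0.02 ± 0.21 (limma, adjusted p = 1).

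The related entry miR-669a, whose probes are also rich in A and C, showed no change past the threshold. Its log2 levels were 7.65, 7.99, 7.62, and 7.40 at day 1, 8.21, 8.33, 8.21, and 7.65 at day 3, and 7.68, 7.87, 7.94, and 6.94 at day 5. The groups of any pair of days overlapped, and the F test gave an adjusted p of 0.152 (limma). Within arrays, the difference between miR-669n and miR-669a changed by -1.72 from day 1 to day 5, without overlap of the 2 days (exact two-sided permutation p = 0.0286, 0.0571 after adjustment over the 2 pairs of entries compared). The other pair, miR-466f-3p and miR-669f-3p, changed by -0.36 from day 3 to day 5 (exact two-sided permutation p = 0.114, also 0.114 after adjustment). Both pairs were chosen after their values had been seen.

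The fall of miR-466c-5p was as large, and it ended near the background. Its log2 levels were 7.29, 7.89, 7.36, and 7.71 at day 1, 6.54, 5.75, 6.65, and 5.12 at day 3, and 6.13, 5.71, 5.68, and 5.35 at day 5. Detection was marked on each of the 4 day 1 arrays, on no day 3 array, and on 1 day 5 array, and day 1 did not overlap with the later days. The fitted change was -1.55 ± 0.33 at day 3 (limma, adjusted p = 0.00195) and -1.84 ± 0.33 at day 5 (limma, adjusted p = 0.000452). As it was not detected at day 3, the level at day 1 was at least 2.33-fold higher when, for each day 3 array, the lowest signal of any detected miRNA replaced measured values below it, and at least 1.28-fold higher with the 5th percentile of detected signals in that place. Both calls were lost under 6 alternatives, namely 5 other scalings and the fit without a filter on detection. The change at day 5 was then between -3.50 and -2.99 (limma, adjusted p from 0.0227 to 0.144), and the adjusted p at day 3 was between 0.092 and 0.487. On array 4 of day 5 its signal before normalization was -43.6. Where arrays were only scaled or left unscaled, a floor of 1 took the place of that value.

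The overlapping entries miR-466f-3p and miR-466i-3p were lower at day 5, by less. The log2 levels of miR-466f-3p were 7.54, 7.74, 7.68, and 7.20 at day 1, 7.33, 7.47, 7.31, and 7.50 at day 3, and 6.51, 6.58, 6.70, and 7.10 at day 5. Days 1 and 3 overlapped, and day 5 lay below both. The levels of miR-466i-3p were 8.06, 8.14, 8.14, and 7.68 at day 1, 8.11, 8.39, 7.96, and 7.94 at day 3, and 7.42, 7.61, 7.61, and 7.26 at day 5, with the same order. From day 1 to day 5, miR-466f-3p changed by -0.81 ± 0.15 (limma, adjusted p = 0.000641) and miR-466i-3p by -0.53 ± 0.14 (limma, adjusted p = 0.00706). From day 3 to day 5 the changes were -0.68 ± 0.15 (adjusted p = 0.00551) and -0.63 ± 0.14 (adjusted p = 0.00595), by the same limma fit. When these falls occurred depended on normalization. Without it the changes from day 3 to day 5 were -0.31 (limma, adjusted p = 0.449) and -0.20 (limma, adjusted p = 0.570). Mean signals at day 3 were 0.524 and 0.573 times those of day 1. Array totals were lower at day 3 too, between 970972 and 1133159 against between 1459229 and 1978030 at day 1. Day 3 also lay on another slide, so these ratios do not set the 2 entries apart from the whole array. The calls from day 3 to day 5 were lost under 14 and 13 of 26 alternatives. The call for miR-466i-3p from day 1 to day 5 was lost under 15 of 27 alternatives (limma, adjusted p up to 0.0212). These included leaving out array 1, 2, or 3 of day 1, array 1 of day 3, or array 1, 2, or 4 of day 5, with changes between -0.56 and -0.47.

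The entry miR-467f, of the family of miR-467b but listed on chromosome 11, stayed under the threshold. Its log2 levels were 9.03, 9.05, 9.05, and 8.82 at day 1, 8.71, 8.90, 8.82, and 9.22 at day 3, and 7.96, 8.14, 8.46, and 9.01 at day 5. On day 5 the fourth array alone reached the levels of day 1. The change from day 1 to day 5 was -0.60 ± 0.21 (limma, adjusted p = 0.0246), and without that array it was -0.83 (limma, adjusted p = 0.000889).

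At day 3, 2 entries were higher than at day 1, miR-669f-3p and miR-466b-3p. The log2 levels of miR-669f-3p were 8.33, 8.42, 8.44, and 7.96 at day 1, 8.77, 8.80, 8.80, and 8.96 at day 3, and 8.39, 8.48, 8.74, and 8.44 at day 5, so that day 3 lay above both other days. The levels of miR-466b-3p were 7.26, 7.33, 7.12, and 6.03 at day 1, 7.91, 7.91, 7.89, and 7.74 at day 3, and 7.38, 7.54, 7.47, and 7.29 at day 5. At day 3 the changes were 0.54 ± 0.12 for miR-669f-3p (limma, adjusted p = 0.00274) and 0.93 ± 0.25 for miR-466b-3p (limma, adjusted p = 0.00724). Both rises depended on normalization. Without it the values were -0.26 and 0.033, where the median over all miRNAs tested was -0.77. The F test over the 3 days did not pass for miR-466b-3p (limma, adjusted p = 0.018). Its call at day 3 was lost in 8 of the fits with 1 array left out, those without array 3 of day 1, without any 1 of the arrays of day 3, or without array 1, 2, or 3 of day 5 (0.91 to 1.01; limma, adjusted p from 0.0102 to 0.0193), and without array 4 of day 1, where its level was lowest, the change was 0.64.

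The entry miR-467b showed no change past the threshold. Its log2 levels were 7.15, 7.21, 7.29, and 7.12 at day 1, 7.54, 7.08, 7.56, and 6.65 at day 3, and 7.31, 7.33, 7.52, and 6.92 at day 5, and it gave an adjusted p of 0.926 in the F test (limma). Its change from day 1 to day 5 was 0.07 ± 0.20, and -0.55 with arrays scaled to the 75th percentile of miRNAs detected on all arrays (limma, adjusted p = 0.00173). The entry miR-669l was detected on 1 array of day 1 and on no other, so it entered the fit only through the day on which it was highest. Its log2 levels were 5.99, 6.33, 5.84, and 5.95 at day 1, 5.19, 5.53, 5.12, and 5.57 at day 3, and 5.00, 4.94, 4.88, and 5.68 at day 5, with day 1 above both other days. The fitted change from day 1 to day 5 was -0.90 ± 0.19 (limma, adjusted p = 0.00174), a difference between signals that were mostly not above background, and the call was lost under 7 of 24 alternatives (limma, adjusted p up to 0.112). For miR-466g and miR-467c the F test gave adjusted p of 0.531 and 0.475 (limma).

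**Figure D2:**
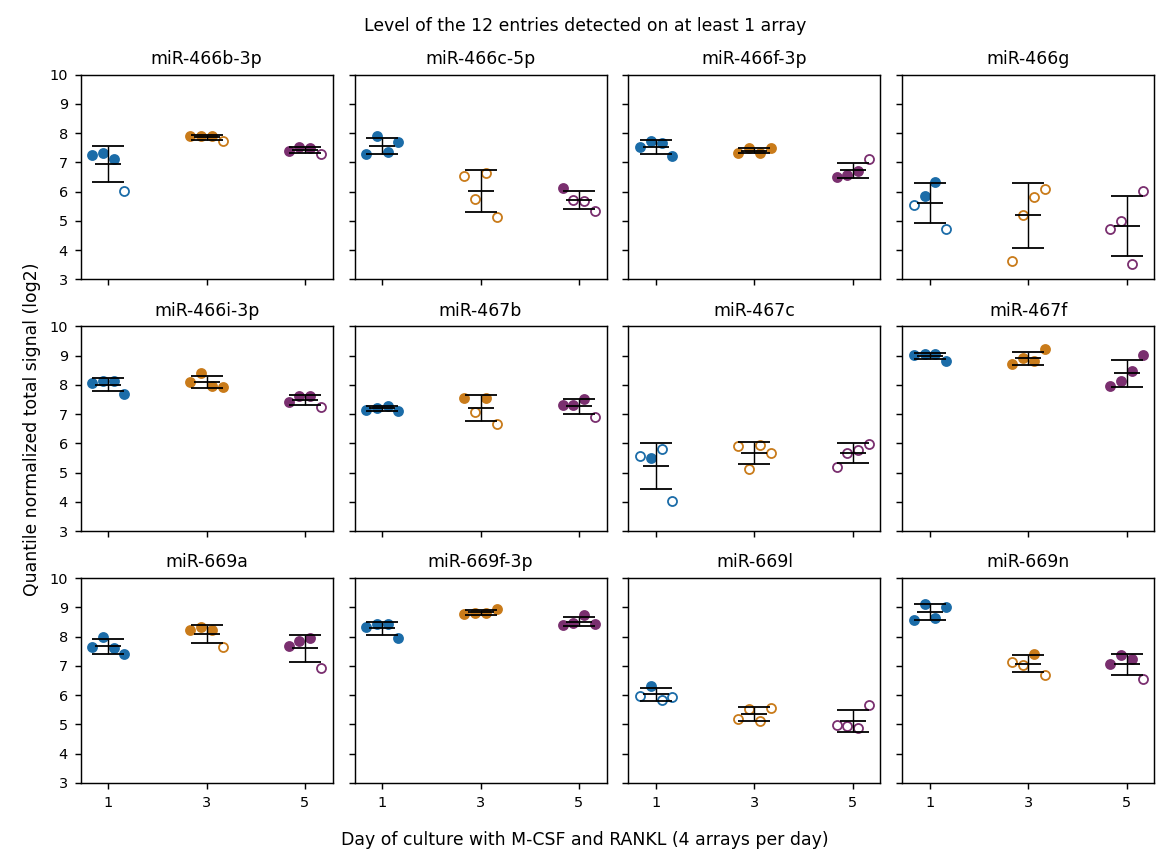
Quantile normalized total signal (log2) of the 12 entries detected on at least 1 array, by day of culture; each circle is 1 of 4 arrays per day, filled where the entry was detected and open where it was not, and the bars give the mean ± SD. The day 1 arrays of miR-669n and miR-466c-5p lie above those of days 3 and 5, whereas the days overlap for miR-467b and miR-669a.

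Counted by comparison, entries passed the threshold in both directions from day 1 to day 3, and only downward in the comparisons with day 5. From day 1 to day 3, 2 of the 12 were higher (limma, adjusted p under 0.01), against 27.2% of all miRNAs tested, and 2 were lower, miR-669n and miR-466c-5p, against 25.1%. Without normalization this split was 0 higher and 3 lower, and the share of all miRNAs called is not given. The median change over all miRNAs tested was then -0.77, so this split is not particular to the entries. From day 1 to day 5, 5 of the 12 were lower, against 29% of all, and 0 were higher, against 31.7%. These 12 include miR-466g, miR-467c, and miR-669l, which were detected on day 1 alone, and miR-669l is among the 5. With detection on all 4 arrays of a day required, 2 of 8 were lower, and the share of all miRNAs is not given. Of these 8, miR-466c-5p, miR-467b, miR-669a, and miR-669n met that filter on day 1 alone, so it also favors entries high at day 1. From day 3 to day 5, 2 were lower, against 10.8%, and 0 were higher, against 14.7%. These 2 were miR-466f-3p and miR-466i-3p, whose probes overlap, so they do not count as independent. Both are also among the 5 that were lower at day 5 than at day 1. At an unadjusted p under 0.05 the limma count of higher entries was also 0 in both comparisons with day 5. Both falls from day 3 to day 5 were lost when array 1, 2, or 3 of day 3 or array 1 or 2 of day 5 was left out. That of miR-466f-3p was also lost without array 4 of day 3 or array 3 of day 5, and that of miR-466i-3p without array 4 of day 5. Without array 2 of day 1, 3 entries in place of 5 were lower at day 5 than at day 1. Only 10 entries were then tested, since miR-467c and miR-669l were detected on that array alone, so miR-669l dropped out untested. These comparisons share arrays and are not independent.

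The median log2 change of the 12 entries was -0.03 from day 1 to day 3, -0.56 from day 1 to day 5, and -0.35 from day 3 to day 5. Over all 334 miRNAs tested it was 0.18, 0.11, and 0.00. Of the 12, 6 values were below 0 in the first comparison, 8 in the second, and 11 in the third, whatever their test. Since miR-466g, miR-467c, and miR-669l entered the 12 through detection on day 1 alone, the set favors entries high at day 1. The scaling of the arrays shifted all miRNAs together. When arrays were scaled to the 75th percentile of miRNAs detected on all arrays, the median change from day 1 to day 5 was -0.51 over all miRNAs and -0.99 over the entries. With detection on all 4 arrays of a day required it was 0.15 over all and -0.48 over the 8 entries left. Several of these entries met that filter on day 1 alone. With no filter both medians were 0.00, but undetected miRNAs then counted too, and signals below the floor of 1 were set to it. A median of 0.00 reached in this way is no estimate of a change.

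**Figure D3:**
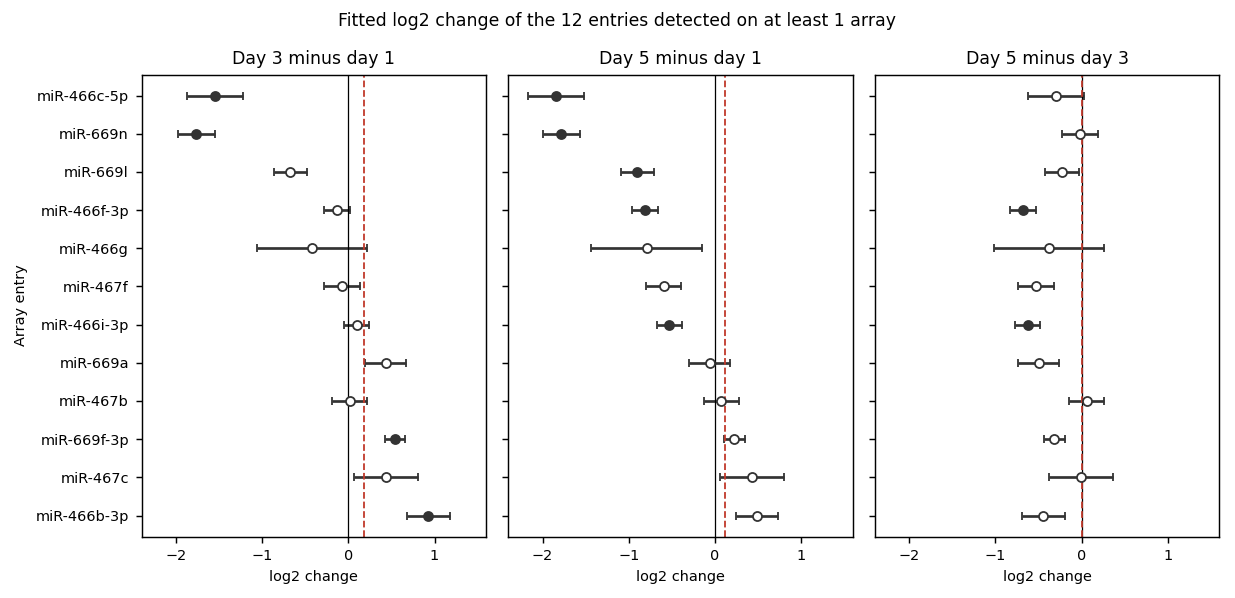
Fitted log2 change (circle) ± SE (bar) of the 12 entries for each pair of days, filled where the adjusted p was under 0.01 (limma); the dashed line is the median of all 334 miRNAs tested. From day 1 to day 5, miR-466c-5p (-1.84) and miR-669n (-1.78) lie farthest to the left, and all filled circles in that panel lie below 0.

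Related lists are given for comparison. Of the 4 opposite-strand entries of the same families, miR-467d* alone was detected, on 11 arrays, and its changes from day 1, 1.02 ± 0.31 at day 3 (limma, adjusted p = 0.0149) and 0.79 ± 0.31 at day 5 (limma, adjusted p = 0.0429), did not pass the threshold. This entry is also listed as miR-467a* and has 9 places on chromosome 2, so its signal is not tied to miR-467d, which was itself not detected. The miRNAs of the Dlk1-Dio3 region, an imprinted cluster on another chromosome, were detected in 16 of 84 entries. Of these 16, 9 passed the F test (62.9% of all miRNAs tested), 6 were lower (29% of all) and 2 higher (31.7% of all) at day 5 than at day 1, and their median change was -1.91. Whether the lists differ was not tested.

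Signals of miRNAs listed as cell type markers also moved between the days. The summed signal of the erythroid miRNAs miR-451 and miR-144 (2 of the 4 markers listed are on the array under those names) was between 29020 and 57393 at day 1, between 738 and 1760 at day 3, and between 49.4 and 286 at day 5, and miR-144 was not detected on days 3 and 5. The only marker listed as megakaryocytic, miR-126-3p, lay between 608 and 1337 at day 1, between 15.5 and 47.1 at day 3, and between -96.5 and 40.1 at day 5. It was not detected on either later day, and as 1 miRNA it does not set megakaryocytes apart from other cells. The 3 lymphoid markers summed to between 2471 and 3336, 1267 and 1525, and 1594 and 2026, with miR-150 not detected on days 3 and 5. The myeloid miR-223, the only marker listed as granulocytic, lay between 82084 and 85627, 39484 and 47670, and 55476 and 62758. Its signal is not tied to granulocytes, since the cultured precursors are myeloid as well. The 5 stromal markers summed to between 494 and 885, 403 and 519, and 2432 and 3545, with miR-143 not detected on days 1 and 3, miR-214 on day 3, and miR-145 on days 3 and 5. Signals of the erythroid and lymphoid markers, of miR-126-3p, and of miR-223 were thus lower on the days on which miR-669n and miR-466c-5p were lower. The stromal sum went the other way at day 5. These signals were not normalized, and array totals also tended to be lower after day 1. The part of any cell type in the changes of the entries was not tested. In bulk RNA, fewer cells of a type and less RNA per cell cannot be told apart.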

How the data were processed

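RNA of 12 bone marrow cultures, 4 per day, was labeled with Cy3 and hybridized to single-color Agilent mouse miRNA arrays. The authors' scanner files, written by Agilent Feature Extraction 9.5.3.1 per the file headers, hold linear intensity values, background-subtracted and not normalized between arrays, and a detection mark per miRNA. The total signal sums the probes of a miRNA over its 20 spots. The authors also deposited log2 values, quantile normalized in GeneSpring, with empty cells for undetected features, and these served as an alternative. The place of each probe is that of the array's annotation (mm9), and gene bounds and mature sequences come from RefSeq tables of GRCm38.p6.

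Quantile normalization was applied to the total signals of 334 miRNAs, those with detection on at least 1 array. Values were then raised to a floor of 1 (372 values, 9.28%, none of the 12 entries described), converted to log2, and fitted with lmFit and eBayes (limma 3.58.1, R 4.3.3). The F test and the contrasts were adjusted by Benjamini and Hochberg over all 334. Samples were grouped by the labels. The members, marker lists, and tests were chosen with earlier results of these data known. Entries detected on all 4 arrays of a day or past the F test are described with every value, as is miR-466b-3p, added after its values were seen, others detected by their number of arrays, and undetected ones by count. Levels of single entries were not ranked against each other, since probes differ. Precision is limited by 4 arrays per day, and p-values measure the spread between these cultures. The fit was tested on simulated data. Deviations of same-numbered arrays from their day means correlated from -0.435 to 0.699, with 7 of 12 pairs over 0.1, fewer than the rule for a block asks, which is every pair. Alternatives covered the detection filter, scaling, signal column, normexp background correction (offset 50), floor, test, threshold, replicate block, days 1 and 5 alone, and each array left out. Tables and exact tests were made in Python 3.11.15 (pandas 2.3.3, scipy 1.17.1) and figures with matplotlib 3.10.9.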

Additional observations from a re-analysis of the deposited data

Results flagged for a closer look

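In 8 of 42 groups of 4 arrays checked, 1 array lay far from the other 3 by Dixon's test at the 95% level, where chance gives about 1 in 20, and in all 8 it was array 4 of its day. The groups share arrays and some share probes, so they are not independent. The 8 of 42 therefore cannot be read against 1 in 20. On array 4 of day 1, the log2 level of miR-466b-3p was 6.03 (others 7.12 to 7.33), that of miR-466i-3p 7.68 (8.06 to 8.14), and that of miR-467f 8.82 (9.03 to 9.05). On array 4 of day 3, miR-466b-3p was at 7.74 (7.89 to 7.91) and miR-669f-3p at 8.96 (8.77 to 8.80). On array 4 of day 5, miR-669l was at 5.68 (4.88 to 5.00), 2 entries of the families were detected (8 to 9), and their share of the array total was -0.0938% (0.111% to 0.120%). The cause was not tested.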

How the results depend on the processing

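The falls of miR-669n from day 1 kept their direction and call under every alternative run, and the counts of 0 higher entries at day 5 than at day 1 or day 3 stayed at 0. Other counts moved with processing, and the cause was not tested. Shares of all miRNAs called under each alternative are not given. In these counts a shift of the entries therefore cannot be told from one of the whole array. The entries tested also changed, to 8 with detection on all 4 arrays of a day, 2 with all 12 arrays, and 37 with no filter. Changed over time were 6 entries, with 2 under a filter for detection on all 12 arrays, 2 with no filter, 3 with scaling to the 75th percentile of all miRNAs, 1 with scaling to the median, 3 with normexp, and 3 with the deposited values. Changes over 2-fold (2) became 1 with detection on all 12 arrays, no filter, 75th percentile of all, median, or quantiles over all miRNAs, and 0 with normexp. Higher at day 3 than day 1 (2) became 1 with detection on all 4 arrays of a day, no filter, 75th percentile of all, or deposited values, and 0 with all 12 arrays, median, or no scaling. Lower at day 3 than day 1 (2) became 0 with all 12 arrays and 1 with no filter, either 75th percentile, median, quantiles over all, or deposited values. Lower at day 5 than day 1 (5) became 2 with either detection filter, no filter, or quantiles over all, 1 with the median, and 3 with normexp. Lower at day 5 than day 3 (2) became 5 with the 75th percentile of miRNAs detected on all arrays, 0 with the 75th percentile of all, median, no scaling, or normexp, and 1 with either detection filter, no filter, processed signal, deposited values, or an intensity trend. Entries kept were 2 with detection on all 12 arrays and 37 with no filter.

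The labels tie same-numbered arrays by number alone, and their deviations did not correlate in every pair, but those numbered 4 did (0.236, 0.335, and 0.699). With the replicate block, 1 entry in place of 2 was lower at day 5 than day 3, and no other count of calls moved by over 1.5 times.

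The median change of the entries from day 1 to day 3 (-0.03) was -0.87 without scaling and 0.48 with deposited values. Over all miRNAs tested it was -0.77 and 0.26. From day 1 to day 5 the entries' median (-0.56) was 0.00 with no filter, -0.99 with the 75th percentile of detected miRNAs, and -0.98 without scaling. It was -0.11 with normexp and -0.96 with deposited values. Medians of all miRNAs were 0.00, -0.51, -0.50, 0.08, and 0.27 in that order. From day 3 to day 5 the entries' median (-0.35) was 0.00, -0.85, -0.11, -0.14, and -1.03 in the same order, and -0.61 with the 75th percentile of all. Medians of all miRNAs were 0.00, -0.26, 0.36, 0.01, -0.01, and -0.03. With no filter the floor of 1 set many values equal, so a median of 0.00 is no estimate of a change. The share of the total became 0.624%, 0.838%, and 0.652% with normexp, 0.109% at day 1 with deposited values, and 0.174% at day 3 with negative signals at 0.

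With 1 array left out, 4 to 6 entries changed over time, 2 to 3 over 2-fold, 1 to 2 were higher and 2 to 3 lower at day 3 than day 1, 3 to 5 lower at day 5 than day 1, 0 to 3 lower at day 5 than day 3, and 10 to 12 were detected (10 without array 2 of day 1). Medians lay from -0.07 to 0.04, -0.65 to -0.43, and -0.47 to -0.31, and shares from 0.150% to 0.179%, 0.116% to 0.135%, and 0.0445% to 0.116%.

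Some changes turned sign. From day 1 to day 5, miR-466b-3p was at -0.071 with the 75th percentile of detected miRNAs and -0.062 without scaling. For miR-467b the values were -0.078 with no filter or quantiles over all, -0.55 (limma, adjusted p = 0.00173) and -0.24 with the 75th percentiles of detected and all, -0.20 with the median, -0.54 without scaling, -0.027 with normexp, and from -0.0087 (without array 3 of day 5) to 0.178 (without array 4 of day 5) with 1 array left out. For miR-467c they were -0.11 with no filter or quantiles over all, -1.01 and -0.70 with the 75th percentiles, -0.66 with the median, and -0.998 without scaling. For miR-669a they were 0.11 with detection on all 4 arrays of a day, 0.0093 with normexp, 0.43 with deposited values, 0.049 without array 2 of day 1, and from -0.17 (without array 3 of day 5) to 0.17 (without array 4 of day 5) with 1 array left out. For miR-669f-3p they were -0.36 with detection on all 12 arrays (limma, adjusted p = 0.002), -0.043 with the 75th percentile of detected miRNAs, and -0.033 without scaling, and from day 1 to day 3 -0.26 without scaling. Signal near the background limits miR-669n at day 3, miR-466c-5p, miR-466g, miR-467c, and miR-669l.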
